A study of Homo sapiens with 6 samples.

Results

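*NEAT1*, *MALAT1*, *MEG3*, *H19* and *KCNQ1OT1* are long noncoding RNAs that act in the nucleus or are expressed from a single parental allele. They were taken from the deposited count table by gene symbol, and the 5 genes are 5 of its 58676 gene identifiers. All 5 had at least 10 counts summed over the libraries, so all 5 were among the 19072 genes tested, 3164 of which are long noncoding RNA genes. The table holds 6 RNA-Seq libraries. All are from MRC5, a human lung fibroblast line, and the cells were exposed for 24 h to conditioned media (CM) from ATII cells, an alveolar type II epithelial line with a transgene that 4-hydroxytamoxifen (4-OHT) switches on. Control epithelial cells supplied the CM for 3 libraries (control ATII CM) and cells treated with 4-OHT for 24 h supplied it for the remaining 3 (4-OHT ATII CM), so the fibroblasts of both groups carry no transgene and differ only in the CM they received. The comparison asks whether CM from epithelial cells treated with 4-OHT moved these RNAs in the fibroblasts. Any 4-OHT carried over in that CM could not be told apart from signals of the epithelial cells. Each group stands for 1 fibroblast line and 1 epithelial line, and because the labels do not say that the replicates are separate cultures, p values measure only the spread between these samples.

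*NEAT1* is the scaffold on which paraspeckles assemble, and *MALAT1*, its neighbor on the chromosome, gathers in nuclear speckles, where splicing factors are stored. *MEG3*, *H19* and *KCNQ1OT1* belong to imprinted clusters. *MEG3* and *H19* are transcribed from the maternal chromosome and lie near *DLK1* and *IGF2*, growth regulators expressed from the paternal one, whereas *KCNQ1OT1* is a paternal transcript, antisense to *KCNQ1*, that keeps neighbors such as the cell cycle inhibitor *CDKN1C* silent on that chromosome.

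On GRCh38, *NEAT1* (ENSG00000245532) occupies chr11:65422774-65445540 on the plus strand, and the counted exons cover 22767 bases. *MALAT1* (ENSG00000251562) lies at chr11:65497688-65506516 on the plus strand with 8829 bases of exon. *MEG3* (ENSG00000214548) spans chr14:100779410-100861031 on the plus strand, of which the merged exons of its many isoforms cover 23224 bases. *H19* (ENSG00000130600) lies at chr11:1995176-2001470 on the minus strand with 2897 bases of exon. *KCNQ1OT1* (ENSG00000269821) is counted over 91667 bases at chr11:2608328-2699994 on the minus strand, without an intron. All 3 of *NEAT1*, *MEG3* and *KCNQ1OT1* are therefore counted over far longer exons than most genes, a property that recurs below.

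The libraries were made from polyA RNA, so the 3′ end of each RNA bears on how it is captured. As background, *MALAT1* and the long isoform of *NEAT1* are not cut at a poly(A) signal. RNase P cuts them upstream of a tRNA-like structure, and an A-rich stretch encoded in the genome forms a triple helix that protects the end, whereas the short isoform of *NEAT1* and the imprinted RNAs carry ordinary poly(A) tails. The 80 bases below, read 5′ to 3′ from the reference genome, end at the 3′ end of each gene in the deposited table, except in *MALAT1*, where they end immediately before the tRNA-like mascRNA (chr11:65506117-65506173), 400 bases before the end in the table. Capitals mark the terminal A-rich stretch in *NEAT1* and *MALAT1* and the poly(A) signal AATAAA in the others.
NEAT1, chr11:65445461-65445540, plus strand: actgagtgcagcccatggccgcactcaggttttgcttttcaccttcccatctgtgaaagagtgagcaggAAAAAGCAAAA
MALAT1, chr11:65506037-65506116, plus strand: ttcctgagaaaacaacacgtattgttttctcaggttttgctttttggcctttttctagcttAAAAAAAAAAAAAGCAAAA
MEG3, chr14:100860952-100861031, plus strand: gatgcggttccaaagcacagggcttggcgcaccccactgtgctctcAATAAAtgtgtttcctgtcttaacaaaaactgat
H19, chr11:1995176-1995255, minus strand: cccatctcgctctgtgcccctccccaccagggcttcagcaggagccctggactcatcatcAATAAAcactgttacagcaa
KCNQ1OT1, chr11:2608328-2608407, minus strand: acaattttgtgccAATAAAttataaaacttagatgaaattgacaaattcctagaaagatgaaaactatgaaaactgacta

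The A-rich stretch was 11 bases long with 9 A in *NEAT1* and 19 bases long with 17 A in *MALAT1*, and neither of these windows held AATAAA. The hexamer ended 14 bases before that end in *H19*, 28 bases in *MEG3* and 61 bases in *KCNQ1OT1*. Searched on the transcribed strand only, with no other motif sought, AATAAA was present in the last 80 bases of 55.0% of the genes tested, of 62.9% of the 13859 protein-coding genes and of 44.5% of the 3164 long noncoding RNA genes. A match is a run of letters and not a measured cleavage site. Counts per gene do not separate the short and long isoforms of *NEAT1*, which share their 5′ part.

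The 6 libraries held 17691849 to 26389449 counts on genes, and long noncoding RNA genes took 0.818% to 0.876% of them. The markers of fibroblasts were high in all libraries: *COL1A1* averaged 7124 TPM (a level per length, scaled to the same total in each library) and *VIM* 1074 TPM, and all 12 fibroblast markers were measured. Of these, 4 were higher and 2 lower differentially expressed genes (DEGs, adjusted p below 0.05 in the edgeR quasi-likelihood test of 4-OHT ATII CM against control ATII CM), against 2.95% and 2.76% of all genes tested. *DCN*, a matrix proteoglycan, rose by 0.33 on the log2 scale (adjusted p = 2.66e-06), *LUM* by 0.29, *PDGFRA* by 0.22 and *COL3A1* by 0.18. *COL6A3* fell by 0.28 (adjusted p = 0.0460), with overlapping groups, and *VIM* by 0.10, while *COL1A1* and *COL1A2* were at -0.092 and -0.015 and were not DEGs. Without control replicate 2 these became lower DEGs too, at -0.14 (adjusted p = 1.80e-05) and -0.065 (adjusted p = 0.0411). The 4 higher markers were called with any single library left out, whereas no lower one was without control replicate 3 or any one 4-OHT replicate, and 1 was without control replicate 1. Of 14 epithelial markers 7 passed the count filter, none was a DEG, and the summed level of these 7 was 99.5 to 105 CPM (counts scaled to TMM-normalized library size) with control ATII CM and 97.4 to 104 CPM with 4-OHT ATII CM. *CDH1* and *SFTPC*, which define epithelial and alveolar type II cells, had 4 and 1 counts over all libraries, whereas the keratins *KRT18* and *KRT8* of the same list were the highest, at 52.6 and 33.1 CPM. Of 9 endothelial and blood cell markers 2 passed the filter, with a summed level of at most 0.799 CPM in any library. Control replicate 2 stood apart: it had the fewest counts, and its counts differed from those of the other 2 control libraries by chi-square values of 4.87 and 5.56 per degree of freedom, against 2.04 between those libraries and 2.31 to 2.92 among the 4-OHT ATII CM libraries.

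The label "abundant" held for only 3 of the 5 RNAs. *MEG3* had 162446 counts over the 6 libraries, *NEAT1* 61594 and *MALAT1* 28938, whereas *KCNQ1OT1* had 193 and *H19* 18. By mean CPM *MEG3* ranked 1st among the long noncoding RNA genes tested, *NEAT1* 2nd and *MALAT1* 7th, behind *NORAD*, *SNHG29*, *SNHG5* and *FENDRR*, while *KCNQ1OT1* ranked 563rd and *H19* 2371st. Together the 5 RNAs took 20.2% to 23.8% of all counts on long noncoding RNA genes, and *MEG3* alone took 13.0% to 15.01%. Among all genes tested, *MEG3* ranked 79th by CPM.

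Per length the order changed. *MEG3* averaged 210.0 TPM with a range of 189 to 228 TPM over the 6 libraries, *MALAT1* 98.7 TPM (84.7 to 117), and *NEAT1* 81.7 TPM (73.9 to 98.3). *MEG3* lay above the other RNAs in every library, and *MALAT1* lay above *NEAT1* within each of the 6 libraries, although their ranges over libraries overlapped. *H19* (mean 0.195 TPM, highest library 0.392 TPM) and *KCNQ1OT1* (mean 0.0633 TPM, highest library 0.0948 TPM) were far lower in every library and overlapped each other. The length used decides part of this order. Divided by the length of the GENCODE canonical transcript, which is 632 bases for *MEG3*, 10434 for *MALAT1* and 22743 for *NEAT1*, the mean level was 1896 CPM per kb for *MEG3*, 20.5 for *MALAT1* and 20.1 for *NEAT1*. On this scale *KCNQ1OT1* was at 2.097 and *H19* at 0.126 CPM per kb, the reverse of their order in TPM. The counts divided were those on all merged exons, not on the canonical transcript alone. The merged exons cover 23224 bases in *MEG3* and 91667 in *KCNQ1OT1*, whose canonical transcript has 679 bases. The scale therefore raises RNAs whose canonical transcript is short beside the counted exons, and it is not a level of that transcript. The short *SNHG5*, at 472 TPM, was the long noncoding RNA with the highest level per length, and *MEG3* ranked 4th, *MALAT1* 12th and *NEAT1* 14th.

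**Figure D1:**
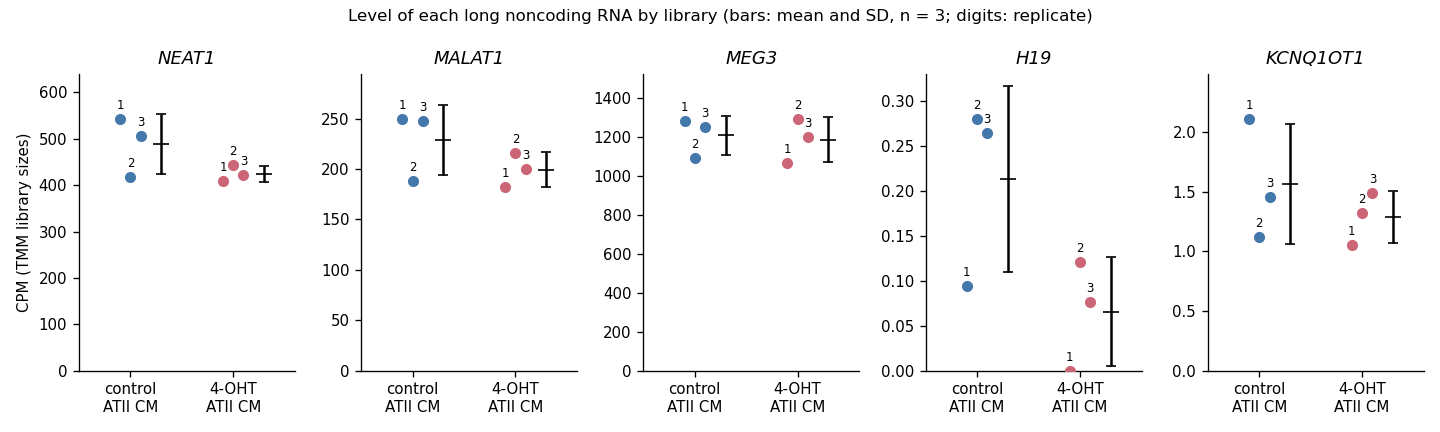
Level of each of the 5 long noncoding RNAs in the 6 libraries, in CPM on an axis from 0 with its own scale in each panel. Points are libraries (digits give the replicate) and bars the mean and SD of 3 libraries. In *NEAT1* and *MALAT1*, replicates 1 and 3 of control ATII CM lie above all 4-OHT ATII CM libraries and replicate 2 lies among them.

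None of the 5 RNAs was a DEG between 4-OHT ATII CM and control ATII CM by edgeR, where 5.72% of all genes tested and 0.822% of the long noncoding RNA genes tested were. DESeq2 and limma-voom also called none, although DESeq2 gave no adjusted p for *H19* and *KCNQ1OT1*. By edgeR, 2 of the 5, *NEAT1* and *MALAT1*, had an unadjusted p below 0.05, as had 3306 of the 19072 genes tested and 194 of the 3164 long noncoding RNA genes. The share of DEGs was 10.2% among the 9202 genes that averaged 10 CPM or more, the range in which *MEG3*, *NEAT1* and *MALAT1* lie. All 5 estimates were below 0, and the groups overlapped in all 5, whereas they did not overlap in 22.1% of all genes tested. The RNA came from whole cultures, so a change in the number of expressing cells and a change per cell cannot be told apart.

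*NEAT1* had 543, 417 and 506 CPM in the 3 control ATII CM replicates in order and 409, 443 and 422 CPM with 4-OHT ATII CM. The means were 489 ± 65.0 and 425 ± 17.0 CPM (SD, n = 3). Control replicates 1 and 3 were higher than every library of the other group, and control replicate 2 was in the range of that group. The log2 fold change was -0.20 with a standard error of 0.067, an unadjusted 95% interval of -0.35 to -0.062 and an adjusted p of 0.0970. Without control replicate 2 it was -0.30 (interval -0.38 to -0.23) with an adjusted p of 1.19e-05, in a fit that called 8.19% of 18682 genes, 4.46% as lower, so that 1 library decided the call. Without control replicate 1 it was -0.12 (adjusted p = 0.342). With no filter on low counts, *NEAT1* (adjusted p = 2.20e-06) and *MALAT1* (adjusted p = 3.20e-05) were also called, in a fit that called 5.77% of 27749 genes.

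*MALAT1* followed the same libraries. It had 250, 188 and 248 CPM with control ATII CM and 182, 216 and 200 CPM with 4-OHT ATII CM, with means of 229 ± 35.0 and 199 ± 17.3 CPM (SD, n = 3). Again control replicates 1 and 3 were the highest of the 6, and control replicate 2 lay below 2 of the 4-OHT libraries. The log2 fold change was -0.20 (standard error 0.083, interval -0.38 to -0.024, adjusted p = 0.210), and without control replicate 2 it was -0.32 (interval -0.42 to -0.22) with an adjusted p of 2.24e-04. Without 4-OHT replicate 1 it was -0.13 (adjusted p = 0.527). The log2 ratio of *NEAT1* to *MALAT1* was 1.10 ± 0.061 with control ATII CM and 1.09 ± 0.069 with 4-OHT ATII CM (SD, n = 3), a difference of -0.0045 (exact two-sided permutation p = 1). Over the 6 libraries this ratio ran from 1.03 to 1.17. With 3 libraries against 3, the smallest p of this test is 0.1.

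*MEG3* had 1284, 1093 and 1251 CPM with control ATII CM and 1065, 1294 and 1201 CPM with 4-OHT ATII CM. The means were 1209 ± 102 and 1187 ± 115 CPM (SD, n = 3), and the highest and the lowest of the 6 libraries were both with 4-OHT ATII CM. The log2 fold change was -0.027 with a standard error of 0.061 and an adjusted p of 0.884, with an interval of -0.16 to 0.10. Without control replicate 2 it was -0.095 (interval -0.20 to 0.0078, adjusted p = 0.307), and it turned positive, at 0.015, without control replicate 1 and, at 0.050, without 4-OHT replicate 1. No direction can be given for *MEG3*.

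*H19* was close to the limit of the measurement. It had 2, 5 and 6 counts with control ATII CM and 0, 3 and 2 counts with 4-OHT ATII CM, or 0.0937, 0.280 and 0.265 CPM and 0, 0.120 and 0.0761 CPM. The library with 0 counts allows up to 3 counts (one-sided 95% limit, counting error only). Summed over libraries, 13 counts stood against 5, and the fitted log2 fold change of -1.55, which depends on the prior count, had an interval of -3.29 to 0.18 and an adjusted p of 0.354. A difference was not detectable at this depth. The log2 ratio of *H19* to *IGF2*, its oppositely imprinted neighbor, was -3.76 ± 0.48 with control ATII CM and -4.83 ± 0.42 with 4-OHT ATII CM (SD, n = 3), with the lowest p the exact two-sided permutation test allows (0.1, adjusted over 4 ratios 0.4). The difference of -1.07 rests on a prior count of 2, and with a prior count of 0.5 it was -1.76.

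*KCNQ1OT1* had 45, 20 and 33 counts with control ATII CM and 23, 33 and 39 with 4-OHT ATII CM, equal to 2.11, 1.12 and 1.46 CPM and 1.05, 1.32 and 1.48 CPM. A single library, control replicate 1, lay above the rest, and the other 5 were between 1.05 and 1.48 CPM. The log2 fold change was -0.28 (standard error 0.26, interval -0.83 to 0.26, adjusted p = 0.645), and without control replicate 1 it was -0.0094. The level of this RNA was at most 0.491 counts per kb of exon in any library, so reads of unspliced *KCNQ1* transcript on the other strand could not be told apart from it if the counting did not use strand, which is not stated in the sources used here.

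**Figure D2:**
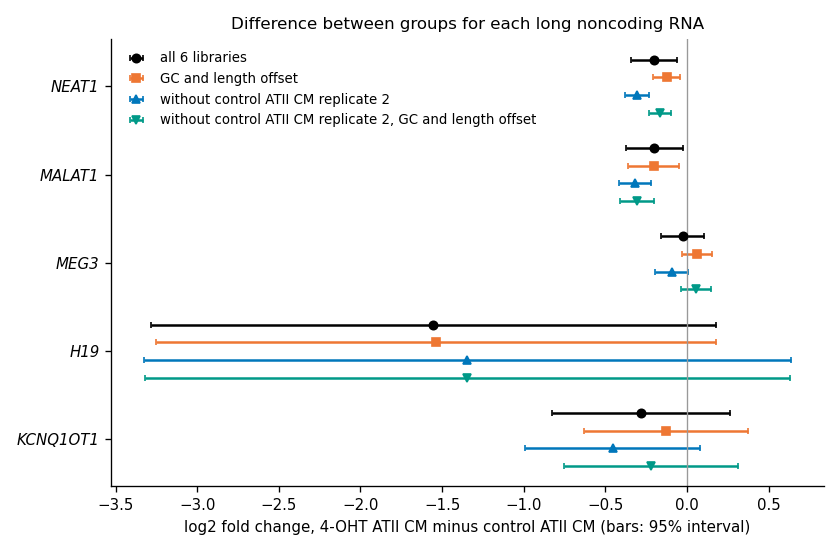
Log2 fold change of each RNA (4-OHT ATII CM minus control ATII CM, horizontal axis) with its unadjusted 95% interval from the edgeR quasi-likelihood fit, for all 6 libraries, with an offset for GC content and exon length, without control replicate 2, and with both. *NEAT1* and *MALAT1* lie below 0 in all 4 fits, *MEG3* lies on both sides of 0, and the intervals of *H19* and *KCNQ1OT1* include 0 in each.

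*NEAT1* was high and low in the same libraries as genes with long exons, *MALAT1* in all but 1 library, and *MEG3* only in part. Among the 252 genes with exons over 16000 bases and an average of 10 CPM or more, which include *NEAT1* and *MEG3*, the median deviation of log2 CPM from the mean of the 6 libraries was 0.087, -0.089 and 0.068 in the 3 control ATII CM replicates in order and -0.029, -0.021 and -0.020 with 4-OHT ATII CM. *NEAT1* deviated by 0.26, -0.12 and 0.16 with control ATII CM and by -0.15, -0.036 and -0.10 with 4-OHT ATII CM. *MALAT1* deviated by 0.23, -0.17 and 0.22 and by -0.22, 0.027 and -0.088. The signs of *NEAT1* were those of the long genes in all 6 libraries, and those of *MALAT1* in 5 of 6, with larger deviations in both RNAs. *MEG3* deviated by 0.10, -0.13 and 0.067 with control ATII CM, close to the long genes, and by -0.17, 0.12 and 0.0077 with 4-OHT ATII CM, where its sign was that of the long genes in replicate 1 alone. In the 2052 genes with 8001 to 16000 bases of exon, the class of *MALAT1*, the medians were 0.034, -0.043 and 0.022 with control ATII CM and ran from -0.0057 to -0.0016 with 4-OHT ATII CM.

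**Figure D3:**
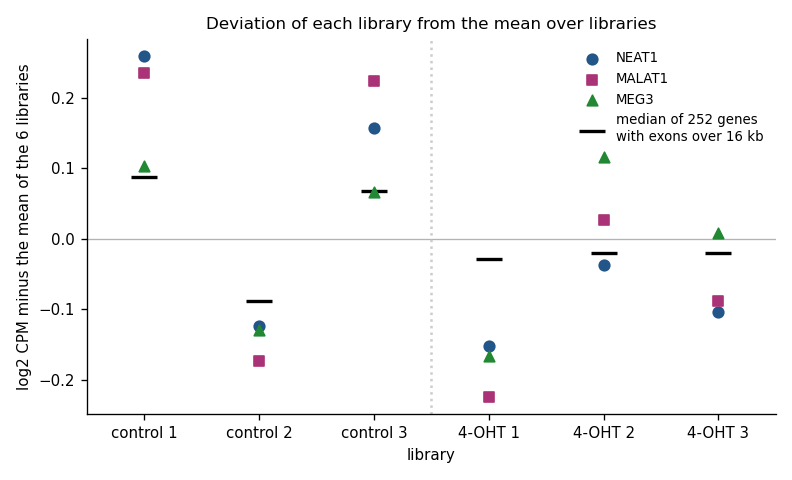
Deviation of log2 CPM from the mean of the 6 libraries (vertical axis) for *NEAT1*, *MALAT1* and *MEG3* in each library (horizontal axis), beside the median of the 252 genes with exons over 16000 bases. *NEAT1* and the long-gene median are positive in control replicates 1 and 3 and negative in control replicate 2 and with 4-OHT ATII CM.

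**Figure D4:**
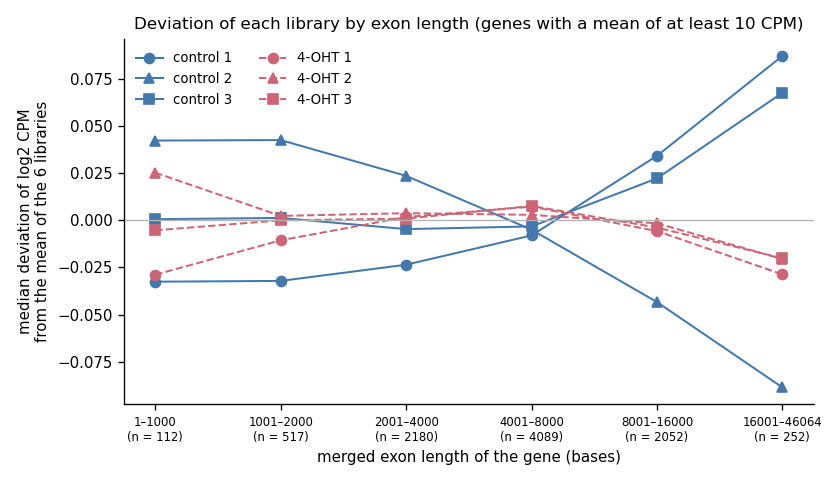
Median deviation of log2 CPM of each library from the mean of the 6 libraries (vertical axis) for genes grouped by merged exon length in bases (horizontal axis, with the number of genes). Control replicate 1 rises with length to 0.087, control replicate 2 falls to -0.089, and the 4-OHT libraries stay between -0.029 and 0.025. Control replicate 3 stays between -0.0047 and 0.0012 up to 8000 bases and rises to 0.068 in the longest class.

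With an offset fitted to the trend of each library on GC content and exon length, the log2 fold change of *NEAT1* was -0.12 (interval -0.21 to -0.043, adjusted p = 0.0646), against -0.20 without the offset. That of *MALAT1* stayed at -0.21 (interval -0.36 to -0.051, adjusted p = 0.115). That of *MEG3* was 0.062 (interval -0.029 to 0.15, adjusted p = 0.503), and that of *KCNQ1OT1*, which has the longest exons, was -0.13 (interval -0.63 to 0.37, adjusted p = 0.845), against -0.28 without the offset. Without control replicate 2 and with the offset, a setting added after the data were seen in which 8.52% of genes were called, *NEAT1* was at -0.17 (interval -0.23 to -0.0999, adjusted p = 0.00189), *MALAT1* at -0.31 (interval -0.41 to -0.20, adjusted p = 5.08e-04) and *MEG3* at 0.054 (interval -0.037 to 0.15, adjusted p = 0.565). The offset thus lowered the size of the *NEAT1* difference and left that of *MALAT1*, but it overshot for the long genes, whose median log2 fold change went from -0.043 to 0.019 with all libraries and from -0.084 to 0.045 without control replicate 2. Of the 252 long genes, 17.5% had a log2 fold change below that of *NEAT1* in the fit to all libraries, against 1.79% to 4.97% in the 5 classes of shorter exons. In the class of *MALAT1*, 5.21% were below *MALAT1*.

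By pattern over the 6 libraries, measured as the root mean square difference of centered log2 CPM among 9202 genes averaging 10 CPM or more, the genes most like *NEAT1* were *LCAT* (0.026), *NF1* (0.030) and *CCDC57* (0.031). Those most like *MALAT1* were *WDFY3* (0.027), *CCDC57* (0.037) and *SRRM2* (0.041), the last encoding a core protein of nuclear speckles. *NEAT1* and *MALAT1* differed from each other by 0.053 on this scale. Of these 5 genes *NF1* and *WDFY3*, with 27130 and 16856 bases, have exons over 16000 bases, whereas *LCAT* has 2625, *CCDC57* 12397 and *SRRM2* 13266 bases. For *MEG3* they were *SEMA4G* (0.030), *CPEB4* (0.031) and *PPM1K* (0.034), and 1456 genes came within 0.1 of it, against 463 for *NEAT1* and 175 for *MALAT1*. No gene came within 0.1 of *H19* (nearest *LPCAT1*, *IQGAP3* and *CPA4*, from 0.40 to 0.46) or *KCNQ1OT1* (nearest *CELSR2*, *FAT1* and *SMG1*, from 0.15 to 0.16), and in counts this sparse the nearest genes carry little information.

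The tested genes on either side of *NEAT1* were not DEGs, with log2 fold changes of 0.0091 for *FRMD8* and 0.054 for *FAUP4*. *FRMD8*, 9249 bases upstream of *NEAT1*, had 38.4 ± 1.55 CPM with control ATII CM and 38.6 ± 1.70 CPM with 4-OHT ATII CM (SD, n = 3, adjusted p = 0.955, edgeR). The pseudogene *FAUP4*, which lies between *NEAT1* and *MALAT1*, had 5.41 ± 0.42 and 5.59 ± 0.59 CPM (adjusted p = 0.885). The exons of 19 other genes of the table overlap those of the 5 RNAs, over 2968 bases in all, and 17 of these genes, including *MIR675* in *H19*, *MIR770* in *MEG3*, *MIR612* in *NEAT1* and mascRNA in *MALAT1*, were listed at 0 counts in every library. The remaining 2 were *MIR493HG*, with 23 counts over all libraries and 108 bases shared with *MEG3*, and *KCNQ1*, with 5 counts and 121 bases shared with *KCNQ1OT1*. How reads on overlapping exons were assigned is not stated in the sources used here. The only near-identical sequence found in other transcripts of the annotation over more than 453 bases was that of *TALAM1*, the transcript antisense to *MALAT1*, which covers 81.5% of its exons and is not a row of the table under that name.

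Around *MEG3*, none of the 8 tested genes of its imprinted cluster was a DEG in either direction by edgeR, DESeq2 or limma-voom (1 at an unadjusted p below 0.05 by edgeR), counts to be read against the 5.72% and 3306 of 19072 genes given above, and their median log2 fold change was 0.040, against -0.0020 over all genes tested. The expression filter of edgeR kept 4 of the 8, with a median of -0.024. The others had at most 45 counts each over all libraries, so the absence of a call says little about them. *DLK1*, the Notch ligand homolog on the paternal side of the cluster, had 3.28 ± 0.081 CPM with control ATII CM and 3.15 ± 0.12 CPM with 4-OHT ATII CM (SD, n = 3, adjusted p = 0.892). *RTL1*, a retrotransposon-derived gene 18722 bases beyond *MEG3*, had 45 counts in all (log2 fold change 0.91, interval -0.18 to 1.99, adjusted p = 0.401). *MEG9*, a further maternal noncoding RNA of the cluster, had 14.8 ± 1.67 and 11.8 ± 1.40 CPM (SD, n = 3), a log2 fold change of -0.33 with an adjusted p of 0.0719, and its groups did not overlap, as in 22.1% of all genes tested. Without control replicate 2 *MEG9* was a DEG, at -0.41 (adjusted p = 0.00952). *MEG3* was far above the rest of the cluster in counts, and *WDR25*, the next highest at 16.7 CPM, was at 0.061 (adjusted p = 0.740). The log2 ratio of *MEG3* to *DLK1* was 8.48 ± 0.11 with control ATII CM and 8.52 ± 0.18 with 4-OHT ATII CM (SD, n = 3, exact two-sided permutation p = 1).

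In the cluster of *H19* and *KCNQ1OT1*, none of the 12 tested genes was a DEG by edgeR or limma-voom (1 by DESeq2, 2 at an unadjusted p below 0.05 by edgeR, against 5.72% called and 3306 of 19072 unadjusted over all genes), and the median log2 fold change was 0.13. With single libraries left out, this median ran from -0.018 without control replicate 1 to 0.19 without 4-OHT replicate 1, so it gives no direction. *IGF2*, a fetal growth factor, had 3.84 ± 0.70 CPM with control ATII CM and 4.07 ± 0.61 CPM with 4-OHT ATII CM (SD, n = 3, adjusted p = 0.820). *CDKN1C* had 128 counts in all, with 0.862 ± 0.56 and 0.999 ± 0.14 CPM (SD, n = 3, adjusted p = 0.864), and the log2 ratio of *KCNQ1OT1* to it was 0.91 ± 1.02 and 0.33 ± 0.31 (exact two-sided permutation p = 0.5). The difference of this ratio ran from -1.04 without control replicate 3 to -0.035 without control replicate 1. *MRPL23*, which encodes a mitochondrial ribosomal protein 10654 bases from *H19*, was at -0.34 (interval -0.56 to -0.12, adjusted p = 0.0670), with CPM values of at most 22.9 in the control libraries and 15.6 in the others. It was a DEG without control replicate 2 (-0.44, adjusted p = 0.00341) and by DESeq2. The highly expressed *CD81*, a tetraspanin, and *TSSC4*, a spliceosome assembly factor and the nearest tested gene on the other side of *KCNQ1OT1*, were at -0.045 (adjusted p = 0.532) and -0.12 (adjusted p = 0.195). Of the imprinted genes on other chromosomes and arms, 2 of 26 fell and none rose, with a median of -0.0064, against 2.76% of all genes tested that fell: *PEG10*, a retrotransposon-derived gene, fell by 0.36 on the log2 scale (adjusted p = 4.22e-04) and *TFPI2*, a protease inhibitor, by 0.23 (adjusted p = 0.0185). The count was 1 without control replicate 1, 4-OHT replicate 1 or 4-OHT replicate 2, and 3 without control replicate 2. The abundant *MEST* and *GNAS* were at -0.015 (adjusted p = 0.873) and -0.022 (adjusted p = 0.789).

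Proteins that bind or build the bodies of *NEAT1* and *MALAT1* are encoded by the genes of the next lists. Of the 32 paraspeckle protein genes tested, 9 fell and none rose, with a median log2 fold change of -0.054, against 2.76% of all genes tested that fell. Among them *SFPQ*, a core protein that holds *NEAT1* in the paraspeckle, fell from 279 ± 4.31 to 247 ± 3.17 CPM (SD, n = 3, log2 fold change -0.18, adjusted p = 0.00324). *HNRNPA1*, which has many processed copies in the genome, fell from 780 ± 8.27 to 698 ± 3.16 CPM (log2 fold change -0.16, adjusted p = 0.00207). A further 6 were *RBM3* (-0.22), *HNRNPH1* (-0.14), *EWSR1* (-0.13), *RBMX* (-0.14), *DAZAP1* (-0.13) and *HNRNPH3* (-0.14), all of them RNA-binding proteins, with adjusted p values from 0.00400 to 0.0415. *HNRNPK*, which acts in the choice between the isoforms of *NEAT1*, did not pass the test, at 705 ± 14.6 and 699 ± 15.5 CPM (adjusted p = 0.901). The count of 9 was 8 with the GC and length offset, which called 3.37% of all genes as lower, and 9 without control replicate 2, and it was 4 without control replicate 3, 4 without 4-OHT replicate 1 and 5 without 4-OHT replicate 3. The 9 called genes averaged 10 CPM or more, a range in which 10.2% of genes were DEGs in either direction, higher and lower together.

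Of the 30 nuclear speckle protein genes, 1 fell and none rose, with a median of -0.045, a share near the 2.76% of all genes tested that fell. This was *SON*, a scaffold of the speckle, which went from 219 ± 18.4 to 190.2 ± 7.99 CPM (SD, n = 3, log2 fold change -0.20, adjusted p = 0.0303), and the members with the highest level per length, *SNRNP70* and *U2AF2*, were at -0.044 (adjusted p = 0.599) and -0.093 (adjusted p = 0.205). The count depended on single libraries, with 6 lower without control replicate 2, none without control replicate 3, 4-OHT replicate 1 or 4-OHT replicate 2, and 1 lower and 1 higher without 4-OHT replicate 3. *SRRM2*, whose pattern was among the nearest to *MALAT1*, was at -0.22 (adjusted p = 0.0568), and at -0.32 without control replicate 2 (adjusted p = 2.43e-05). Of the 18 genes that act on the 3′ ends or the stability of *MALAT1* and *NEAT1*, among them the RNase P subunits, *METTL16* and the exosome, none was a DEG in either direction by edgeR, DESeq2 or limma-voom (4 at an unadjusted p below 0.05 by edgeR, against 5.72% called and 3306 of 19072 unadjusted over all genes), with a median of -0.065. *HNRNPC* and the RNase P subunit *POP7*, the highest of them per length, were at -0.0054 (adjusted p = 0.962) and -0.17 (adjusted p = 0.203).

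**Figure D5:**
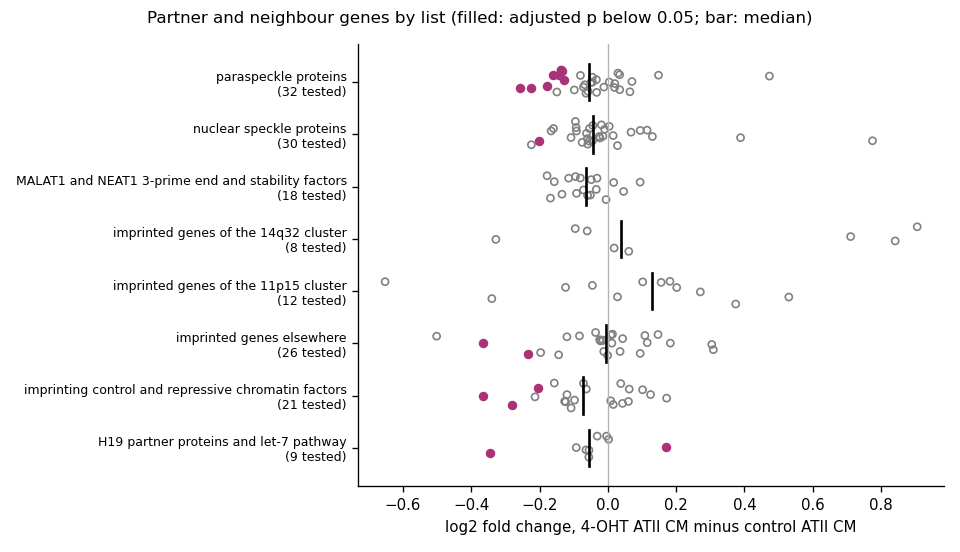
Log2 fold change (4-OHT ATII CM minus control ATII CM, horizontal axis) of every tested gene of 8 lists of partner and neighbor genes (vertical axis), filled where the adjusted p is below 0.05, with the median of the list as a bar. The 9 filled paraspeckle genes all lie below 0, and neither imprinted cluster holds a filled gene.

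Of the 9 tested genes listed for *H19* and the microRNA let-7, 1 rose and 1 fell, with a median of -0.055, against 2.95% and 2.76% of all genes tested. *TGFBI*, a secreted matrix protein, rose from 1970 ± 26.6 to 2218 ± 10.5 CPM (SD, n = 3, log2 fold change 0.17, adjusted p = 4.41e-04), and *HMGA2*, a chromatin protein and a let-7 target, fell from 74.5 ± 7.80 to 58.6 ± 4.01 CPM (log2 fold change -0.35, adjusted p = 0.00388). *KHSRP*, an RNA-binding protein, was at -0.0040 (adjusted p = 0.973). Of 21 genes for imprint maintenance and repressive chromatin 3 fell and none rose, with a median of -0.072, against 2.76% of all genes tested that fell. They were the maintenance methyltransferase *DNMT1* (-0.20, adjusted p = 0.00364), its cofactor *UHRF1* (-0.28, adjusted p = 0.00339) and the Polycomb methyltransferase *EZH2* (-0.36, adjusted p = 0.00724), whereas the abundant *TRIM28* and *YY1* were at -0.12 (adjusted p = 0.162) and 0.016 (adjusted p = 0.893).

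Among 29 further regulatory long noncoding RNAs tested, 2 rose and 2 fell, with a median of 0.010, against DEGs in 0.822% of all long noncoding RNA genes tested, and their count ranged from 1 to 3 when single libraries were left out, with 2 without control replicate 1, 2 without 4-OHT replicate 2 and 1 without 4-OHT replicate 3. The share of DEGs was 10.2% among genes of all types that averaged 10 CPM or more, the range of *FENDRR* and *MIR503HG*. *FENDRR*, a lung mesenchyme RNA whose mean CPM lay between those of *NEAT1* and *MALAT1*, rose from 306 ± 5.87 to 335 ± 2.68 CPM (SD, n = 3, log2 fold change 0.13, standard error 0.031, adjusted p = 0.0207), and *TP53TG1* rose by 0.29 on the log2 scale (adjusted p = 0.0379), a call lost in 9 of 18 alternatives, among them DESeq2, the replicate block and each single library left out but control replicate 3 (adjusted p 0.0159 to 0.144 over the alternatives). The call of *FENDRR* was lost in 4 of 18, without control replicate 1 or 3 or without 4-OHT replicate 2 or 3 (adjusted p 0.00384 to 0.128 over the alternatives), so that no list member rose without control replicate 1, 4-OHT replicate 2 or 4-OHT replicate 3. *MIR503HG* and *CYTOR* fell by 0.32 (adjusted p = 0.00301) and 0.23 (adjusted p = 0.00713). *NORAD*, a cytoplasmic RNA similar to *NEAT1* in CPM, had 437 ± 19.5 and 425 ± 1.79 CPM (SD, n = 3, log2 fold change -0.038, interval -0.11 to 0.035, adjusted p = 0.643). The standard error of *NEAT1*, 0.067, was larger than that of *FENDRR*, and its 13.3% coefficient of variation with control ATII CM stood against 4.02% with 4-OHT ATII CM.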

How the data were processed

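RNA-Seq was performed on 6 MRC5 libraries, 3 per group, assigned to groups by their labels. Per the labels, polyA RNA (3 μg per sample) was sequenced in paired 150-base reads, and the submitters' processing notes name Trim Galore, HISAT2 2.1.0, featureCounts 1.6.5 and GRCh38. The values the authors deposited are raw counts per gene without normalization, with the exon length of each gene. The treatment of strand and of reads that map to several places is not given in the sources used here. Counts of 45 identifiers listed more than once were added. Exons were those the deposited table lists, whose merged lengths matched its length column for 58676 of 58676 identifiers. Symbols, types and canonical transcripts came from GENCODE release 44, which names 58207 of them and whose exons can differ from the table.

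Genes with at least 10 summed counts were tested with edgeR 4.0.16 (R 4.3.3) by the quasi-likelihood test on TMM-normalized counts, with group as the only term and Benjamini-Hochberg adjustment at 0.05. CPM uses TMM library sizes, log2 CPM a prior count of 2. Intervals are 95%. Ratios were compared by exact permutation in scipy 1.17.1. DESeq2 1.42.0, limma-voom 3.58.1 and other settings were alternatives. For the offset, each library's deviation in log2 CPM was fitted by splines with 5 degrees of freedom on GC content and exon length. Same-numbered libraries of the groups correlated at -0.019, -0.12 and -0.11 in their deviations, so they were not paired. Exon overlaps came from bedtools 2.31.1, copies from minimap2 2.31 (at least 95% identity). Library totals of 17691849 to 26389449 leave little counting error for abundant genes, and replicates varied beyond it by 4.36% (square root of the common dispersion).

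The 5 RNAs and the 12 gene lists were chosen with earlier results of these data known. Named genes are the 5 RNAs, in each list the DEGs (at most 8) and the 2 genes with the highest TPM, overlapping and nearest tested genes, and the 3 genes nearest in pattern. *CDH1*, *SFTPC*, *SNHG29*, *SNHG5*, *METTL16*, *HNRNPH3* and *TALAM1* were named in addition, after their values were seen. Some genes that this rule names are not reported here.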

Additional observations from a re-analysis of the deposited data

How the results depend on the processing

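The number of DEGs was 1090 (563 up, 527 down) and ranged from 533 to 1530 when single libraries were left out. No filter gave 875 up and 726 down of 27749 genes, and DESeq2 486 and 468. *NEAT1* and *MALAT1* kept their direction under every alternative run, from -0.30 to -0.12 and from -0.32 to -0.13 on the log2 scale. They became DEGs with no filter on low counts (-0.19 in both), without control replicate 2, and without it but with the GC and length offset (-0.17 and -0.31). The cause was not tested. Over single libraries left out, *MEG3* ranged from -0.096 to 0.050, *H19* from -2.21 to -1.06, *KCNQ1OT1* from -0.46 to -0.0094, the log2 ratio of *NEAT1* to *MALAT1* from -0.042 to 0.026 and that of *MEG3* to *DLK1* from -0.065 to 0.12. *MEG3* was at 0.062 with the offset, at 0.054 with it and without control replicate 2, and at 0.058 with offset and block.

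Signs also changed in uncalled neighbors and list genes. Over single libraries left out, *CDKN1C* ranged from -0.13 to 0.88, *COL1A2* from -0.065 to 0.012, *FAUP4* from -0.032 to 0.13, *FRMD8* from -0.031 to 0.041, *GNAS* from -0.040 to 0.0017, *HNRNPC* from -0.034 to 0.028, *HNRNPK* from -0.029 to 0.0031, *KHSRP* from -0.025 to 0.019 and *YY1* from -0.012 to 0.038. With thinning to the smallest total, *CDKN1C* was at -0.051 and *DLK1* at 0.067. With no filter, *HNRNPC* was at 0.0035 and *KHSRP* at 0.0049. The offset gave *COL1A2* 0.0051, *GNAS* 0.024 and *KHSRP* 0.0045, offset and block gave 0.0050, 0.026 and 0.0045, and the offset without control replicate 2 gave *GNAS* 0.081, *HNRNPC* 0.018 and *KHSRP* 0.014.

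The replicate numbers did not pair the libraries. With the replicate number as a block, 985 genes were called, and *NEAT1* was at -0.20, *MALAT1* at -0.19, *MEG3* at -0.028, *H19* at -1.65 and *KCNQ1OT1* at -0.26, none of them a DEG. *H19* had no value under the expression filter of edgeR, and DESeq2 gave no adjusted p for *H19* and *KCNQ1OT1*.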
